A study of Mus musculus with 6 samples.

Results

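The genes described here are 35 genes used by macrophages and other myeloid cells, measured in the neck region of the mouse stomach corpus with and without Cldn18. They were chosen by name, as receptors, enzymes, transcription factors and surface proteins of these cells, and read from the table of normalized counts by gene symbol. All 35 were found among 38693 rows with a gene symbol, and 34 passed the minimum level for testing. Cldn18 encodes a claudin that seals tight junctions between gastric epithelial cells. There were 3 knockout libraries, labelled CLDN18-/-, and 3 wild-type libraries, labelled CLDN18+/+, all of the B6:129S5 strain with no other treatment given. The neck region of the glands was cut by laser from unfixed frozen sections, so each library holds RNA of every cell type in the captured area. The sample labels give an age of 7 weeks and the series text gives 7 days, and the age is left undecided here. The labels do not say whether replicate libraries came from different mice, so a p-value here reflects only how much these samples vary, possibly for technical reasons.

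Macrophages of the gut wall live between the glands, where they take up microbes, antibody-coated particles and dying cells. Their survival depends on the receptor Csf1r and its ligands, and their identity on the transcription factor PU.1, encoded by Spi1. The activating receptors encoded by Fcgr1, Fcgr3 and Trem2 carry no signalling motif of their own and work through the adaptor proteins encoded by Fcer1g or Tyrobp, whereas Fcgr2b carries an inhibitory motif.

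The targeted gene was lower in the knockout but still read. Cldn18 had 13035.1, 16798.3 and 15818.5 normalized counts in the knockout libraries, against 30497.7, 21210.1 and 23241.1 in the wild-type libraries. The difference on the log2 scale was -0.71 ± 0.20 (SE; limma adjusted p = 0.0134), and the call was lost without knockout replicate 1 (adjusted p = 0.0883). Which part of the gene was removed is not stated in the labels, and this count therefore checks only their direction. Depth ran from 37640881 to 52798211 reads on genes, of which the locus Gm26924 took 38.6% to 45.4%. Transcripts of the mitochondrial genome took 1.25% to 1.56% of reads in the knockout and 3.29% to 4.29% in the wild-type libraries. Wild-type libraries 2 and 3 stood apart from wild-type library 1 for 1427 of 17409 genes (8.2%), whose level was 3 or more times that of library 1 in library 2 and 1.5 or more times in library 3. In bulk RNA of this kind, fewer cells of a type and less RNA per cell cannot be told apart.

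More than 1 in 2 of the macrophage and myeloid genes were higher in the knockout. Of 34 tested, 20 were higher, 1 (Cd163) was lower and 13 did not pass the test (limma on log2(normalized count + 1), adjusted p under 0.05 over all genes). Among all 17409 genes tested, 44.7% were called in either direction, 23.2% higher and 21.4% lower. The 20 higher genes differed by 0.53 to 2.72 on the log2 scale, and 15 of them by at least 1. The median difference was 1.02 over the 34 genes and -0.015 over all genes. The largest difference was that of Cd14, the co-receptor for bacterial lipopolysaccharide, at 6.67 times the wild-type mean. Values of the knockout libraries lay wholly above those of the wild-type libraries for 22 of the 34 and wholly below for 2 (Cd163 and Mertk), where the shares over all genes were 28.1% and 27.1%. A value of at least 10 in every library was reached by 32 of the 34, so their tests do not rest on a filter passed in 1 group. The defining macrophage markers Csf1r, Cd68, C1qa, C1qb, C1qc, Fcgr1 and Aif1 were all among these 32. Of these markers, C1qa, C1qb, C1qc, Fcgr1 and Aif1 were higher, and Csf1r and Cd68 were not called.

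The size of the count depended on single libraries. Without knockout replicate 3 it was 13, and without wild-type replicate 3 also 13. The number over all genes fell too, from 4047 of 17409 with all libraries. It was 3093 of 17080 without knockout replicate 3 and 3323 of 16390 without wild-type replicate 3. Among the 20 higher genes, 19 had their highest knockout value in knockout library 3, which was the highest knockout library for 40.9% of all genes, and 15 had their highest wild-type value in wild-type library 1, against 46.1% of all genes. Without wild-type libraries 2 and 3 the count was 8, of which 7 were among the 20, and 20.3% of all genes were called higher in that fit. With 1 wild-type library left in that fit, its spread is assumed to be that of the knockout libraries. The authors' deposited table called 13 of the 20 higher, and 2915 of 20091 genes in all. The 7 that it did not call were Axl, C1qb, C1qc, Csf1, Fcgr2b, Irf8 and Ncf1. Csf2rb, Fcgr3, Fcer1g, Cd14, Itgax, Ptprc and Cybb kept their call under all 19 alternatives run.

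**Figure D1:**
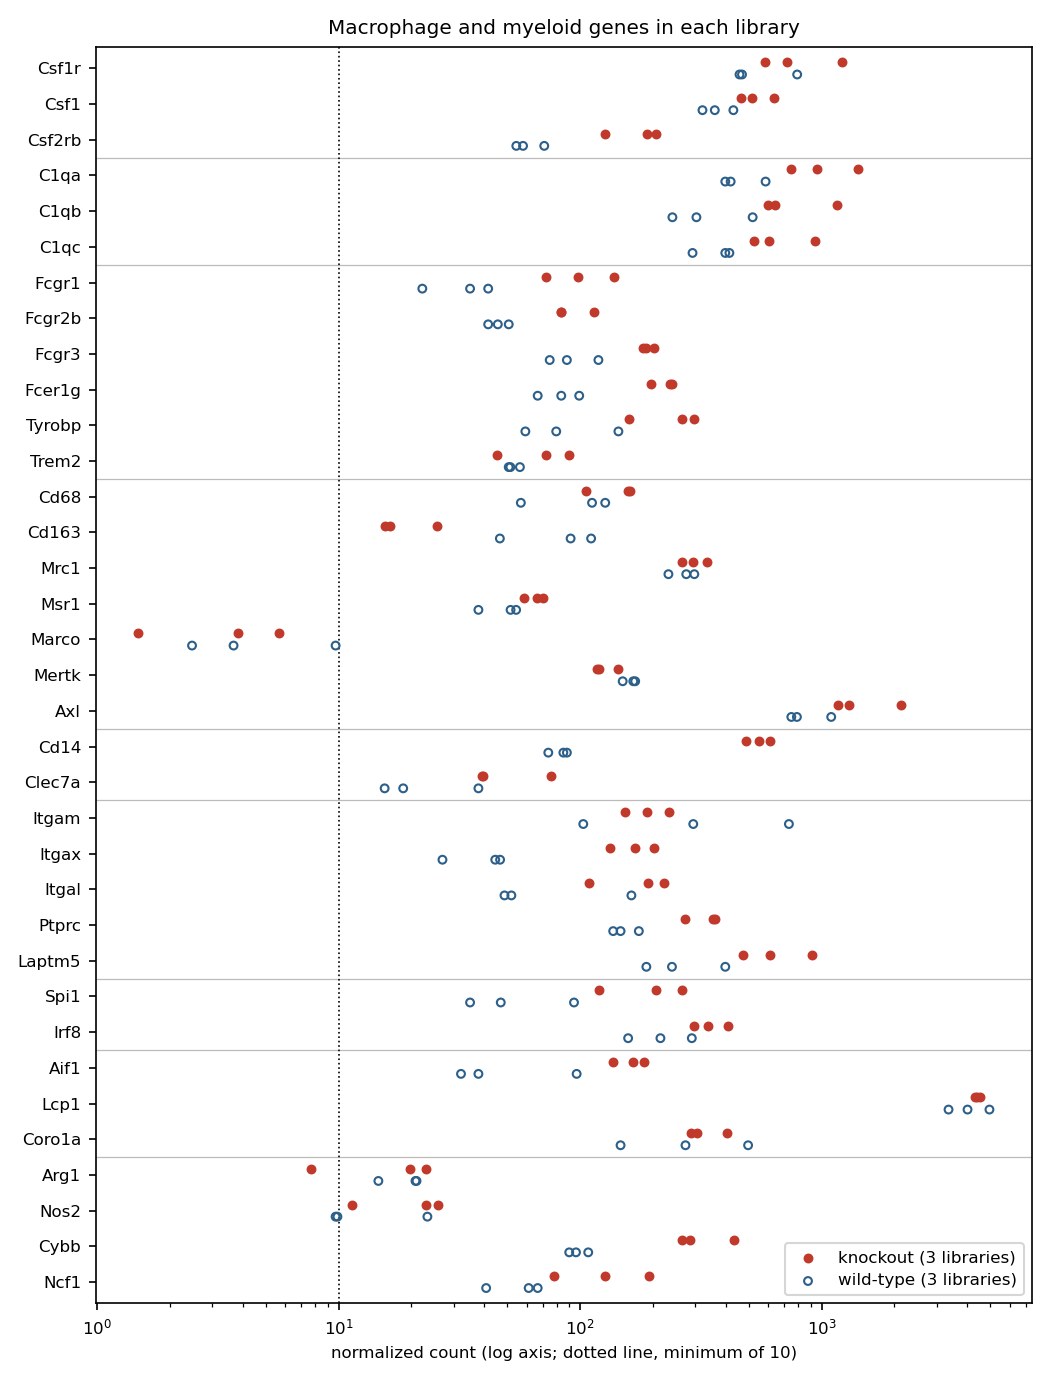
Normalized counts (log axis) of the 35 genes in the 3 knockout libraries (filled circles) and the 3 wild-type libraries (open circles), grouped by role between grey lines, with the minimum of 10 as a dotted line. Cd14, Itgax and Cybb show a gap between the groups, Cd163 has its 3 knockout values below the wild-type values, and Marco lies wholly under the minimum.

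**Figure D2:**
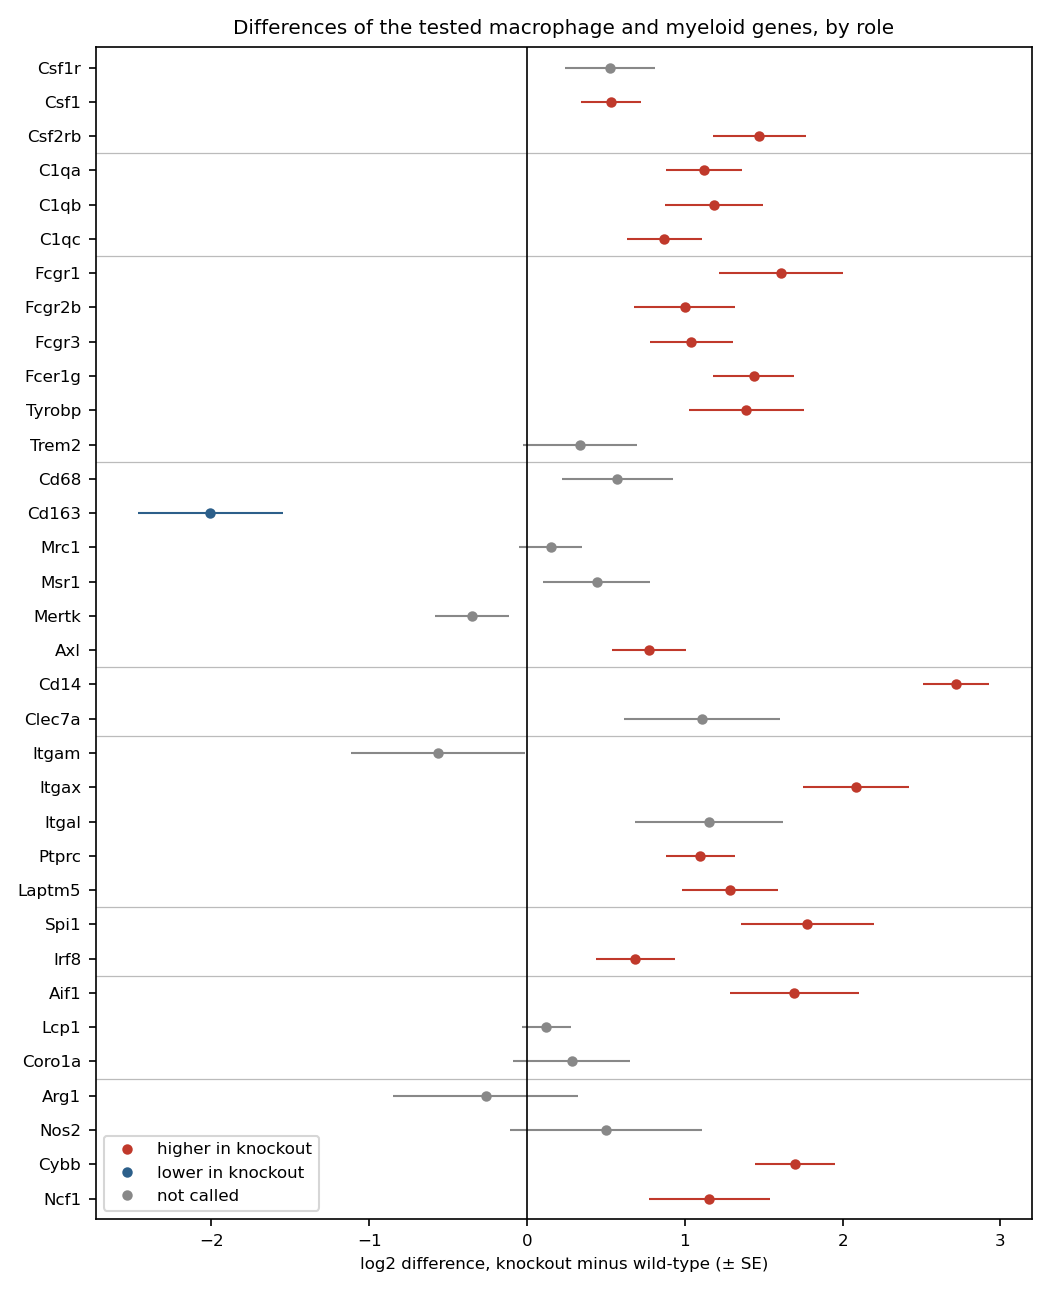
Log2 difference, knockout minus wild-type, of the 34 tested genes with its standard error from limma, coloured by call. The 20 higher genes run from 0.53 to 2.72, Cd163 stands alone at -2.01, and the 13 genes in grey did not pass the test.

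Among the genes of colony-stimulating factor signalling, the shared receptor chain for GM-CSF, IL-3 and IL-5 was higher, and the macrophage growth factor receptor was not called. Csf2rb had 189, 127 and 206 normalized counts in the knockout, against 71.0, 58.0 and 54.4 in wild-type. Every knockout library stood above every wild-type library, and the log2 difference was 1.47 ± 0.30 (SE; adjusted p = 0.00236). Csf2ra, the specific GM-CSF receptor chain that pairs with it, had 201, 227 and 227 in the knockout and 84.5, 74.1 and 76.7 in wild-type (1.47 ± 0.24, adjusted p = 0.000682). The coding sequence of Csf2rb matches that of its neighbour Csf2rb2 at 94.9% over 2694 bases, so reads may be split between them.

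Csf1r, the receptor for CSF1 and IL-34, had 721, 581 and 1211 normalized counts in the knockout and 792, 457 and 468 in wild-type. Wild-type library 1 lay within the knockout range, and the difference of 0.53 ± 0.29 was not called (adjusted p = 0.165), though it was 0.78 without wild-type replicate 1, where it passed (adjusted p = 0.0335), and 0.01 without wild-type libraries 2 and 3 (0.985). Of its exon bases, 15.1% overlap Hmgxb3 on the opposite strand. Csf1, the main ligand, had 464, 513 and 633 in the knockout, against 431, 361 and 321 in wild-type, and the groups did not overlap. Its difference of 0.53 ± 0.19 was called at an adjusted p of 0.0430, and the call was lost without any 1 of knockout replicates 1, 2 or 3 or wild-type replicates 2 or 3 (adjusted p 0.0563 to 0.176). DESeq2 with all libraries did not call Csf1 (adjusted p = 0.0502). Il34, the second ligand, had 103, 102 and 141 in the knockout and 163, 131 and 93.2 in wild-type, with overlapping groups and no call.

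All 3 chains of complement C1q, the recognition protein of the classical pathway that macrophages secrete, were higher in the knockout. Their genes lie side by side on chromosome 4 (mm10, minus strand), with C1qb at 136880129 to 136886187, C1qc at 136889804 to 136893065 and C1qa at 136895917 to 136898803. C1qa had 961, 746 and 1408.1 normalized counts in the knockout, against 586, 420 and 399 in wild-type. C1qb had 640, 602 and 1153.4 in the knockout and 518, 303 and 241 in wild-type, while C1qc had 603, 525 and 935 in the knockout and 399, 415 and 292 in wild-type. For each chain knockout library 3 was the highest of the 6 and no wild-type library reached the lowest knockout library. The differences were 1.12 ± 0.24 for C1qa (adjusted p = 0.00349), 1.18 ± 0.31 for C1qb (0.0103) and 0.87 ± 0.24 for C1qc (0.0123). In the authors' own deposited comparison C1qa was called (adjusted p = 0.0333), and C1qb (0.105) and C1qc (0.0821) were not. Per kilobase of exon C1qa was the highest of the 35 genes in both groups, at a mean of 999 normalized counts per kilobase in the knockout and 450 in wild-type.

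Without wild-type replicate 3 the calls of C1qb and C1qc were lost (adjusted p = 0.0558 and 0.059), as was that of C1qc without knockout replicate 3 (0.0572), and no chain was called without wild-type libraries 2 and 3 (0.0731 to 0.222). C1s1, whose row bears the older symbol C1s and which encodes a protease that binds C1q, had 842, 825 and 1253.3 in the knockout and 672, 377 and 377 in wild-type (1.06 ± 0.25, adjusted p = 0.00602). Its call was lost without wild-type libraries 2 and 3 (adjusted p = 0.143), and 18.4% of its exon bases overlap Gm16567 on the opposite strand.

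Of the 6 genes of Fc receptors and their signalling partners, 5 were higher. Fcgr1, the high-affinity receptor for IgG, had 98.2, 72.4 and 138 normalized counts in the knockout, against 41.6, 22.2 and 35 in wild-type (1.61 ± 0.39, adjusted p = 0.0070). Fcgr3, an activating receptor of lower affinity, had 182, 188 and 202 in the knockout and 88.1, 119 and 74.8 in wild-type (1.04 ± 0.26, adjusted p = 0.00813). Fcgr2b, the inhibitory receptor, had 83.1, 83.5 and 114 in the knockout and 41.6, 50.6 and 45.6 in wild-type (1.0 ± 0.32, adjusted p = 0.0265). In all 3 receptors the lowest knockout library exceeded the highest wild-type library. Fcgr2b and Fcgr3 share a stretch of 512 coding bases at 96.3% identity, so their counts may not be separate. The call of Fcgr2b was lost when any 1 knockout library or wild-type replicate 3 was left out (adjusted p 0.0525 to 0.115), and that of Fcgr1 without wild-type libraries 2 and 3 (0.0579).

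Fcer1g, the adaptor chain through which activating Fc receptors signal, had 235, 197 and 241 normalized counts in the knockout, against 99.1, 66.7 and 83.5 in wild-type. The groups did not overlap and the difference was 1.44 ± 0.26 (adjusted p = 0.00121). Tyrobp, which encodes the adaptor DAP12, had 265, 160 and 295 in the knockout and 144, 59.3 and 79.6 in wild-type (1.39 ± 0.36, adjusted p = 0.0101). Knockout library 2 and wild-type library 1 came close, and the call was lost without knockout replicate 3 (adjusted p = 0.0502) or without wild-type libraries 2 and 3 (0.181). Trem2, a lipid receptor that signals through DAP12, was not called: it had 45.3, 72.4 and 90.3 in the knockout and 51.4, 50.6 and 56.3 in wild-type. Its groups overlapped, and the difference of 0.33 ± 0.36 was not called (adjusted p = 0.487). Syk, the kinase recruited by both adaptors, had 909, 706 and 825 in the knockout and 468, 283 and 474 in wild-type (1.02 ± 0.22, adjusted p = 0.00342).

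Of the 7 scavenging and clearance receptors, 1 was higher, 1 lower, 4 were not called and 1 was too low to judge. These numbers were near the shares over all genes, 23.2% higher and 21.4% lower. Cd163, the receptor that takes up haemoglobin bound to haptoglobin and a marker of resident macrophages, had 25.5, 15.5 and 16.3 normalized counts in the knockout, against 46.5, 111 and 91.3 in wild-type. Its mean was 19.1 ± 5.54 in the knockout and 83.0 ± 33.1 in wild-type (SD, n = 3 each). Every knockout library stood below every wild-type library, and the log2 difference was -2.01 ± 0.46 (adjusted p = 0.00476). Wild-type libraries 2 and 3 were 2.39 and 1.96 times as high as wild-type library 1, and without them the difference was -1.27 with no call (adjusted p = 0.126). With any single library left out it ran from -2.37 to -1.75 and stayed called.

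Other receptors of macrophages that take up particles were not called. Mrc1, the mannose receptor CD206, had 263, 293 and 335 normalized counts in the knockout and 297, 275 and 232 in wild-type, with overlapping groups (0.15 ± 0.20, adjusted p = 0.576). Cd68, a lysosomal membrane protein used as a pan-macrophage marker, had 158, 106 and 161 in the knockout and 127, 56.8 and 112 in wild-type, also overlapping (0.57 ± 0.35, adjusted p = 0.213). Msr1, scavenger receptor A, had 66.1, 58.4 and 70.2 in the knockout and 37.9, 54.3 and 51.5 in wild-type. The 3 knockout values of Msr1 lay above the wild-type values, but the difference of 0.44 ± 0.34 was not called (adjusted p = 0.319). Marco, another scavenger receptor, was too low to judge, with 5.67, 1.48 and 3.84 in the knockout and 3.67, 2.47 and 9.71 in wild-type, where 3 reads equal 2.22 to 3.70 normalized counts.

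The receptors Axl and Mertk belong with Tyro3 to the TAM family, which binds dying cells through the bridging proteins Gas6 and Pros1. Axl had 1304.3, 1168 and 2132.8 normalized counts in the knockout, against 1095.5, 790 and 749 in wild-type. The groups did not overlap, although wild-type library 1 came close, and the difference was 0.77 ± 0.23 (adjusted p = 0.0200). The call was lost without knockout replicate 3 (0.51, adjusted p = 0.0808), without wild-type replicate 3 (0.0873) or without wild-type libraries 2 and 3 (0.283). Mertk had 120, 144 and 117 in the knockout and 166, 169 and 150 in wild-type, each knockout value below each wild-type value, with no call (-0.35 ± 0.24, adjusted p = 0.255).

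Gas6, the ligand of all 3 TAM receptors, was much lower in the knockout. It had 2099.5, 3557.9 and 2518.2 normalized counts in the knockout libraries, against 23412.8, 17550 and 17104.3 in the wild-type libraries (-2.85 ± 0.21, adjusted p = 3.92e-06). For every 100 counts of Gas6 there were 67.8, 36.9 and 89.4 counts of Axl and Mertk together in the knockout, against 5.39, 5.47 and 5.25 in wild-type. Pros1, the other ligand, had 555, 595 and 830 in the knockout and 696, 408 and 372 in wild-type, with overlapping groups and no call. Tyro3 had 1360.9, 1459.8 and 1414.8 in the knockout and 1078.4, 820 and 875 in wild-type (0.62 ± 0.15, adjusted p = 0.00609), a call lost without wild-type libraries 2 and 3 (0.0801).

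**Figure D3:**
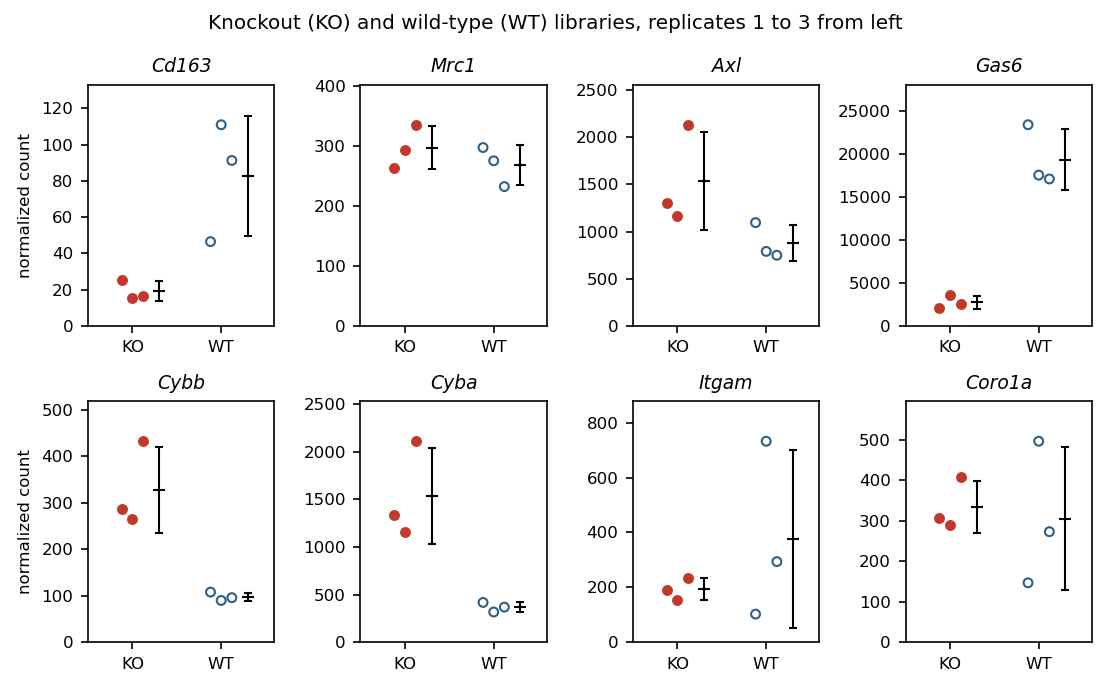
Normalized counts of 8 genes in each library, with knockout libraries left of wild-type libraries and bars for the mean and its SD (n = 3 each). Cd163 and Gas6 lie lower in every knockout library, Axl, Cybb and Cyba higher, the groups of Mrc1 overlap, and in Itgam and Coro1a wild-type library 2 is the highest of the 6.

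Of the microbial sensors, Cd14 had 486, 550 and 612 normalized counts in the knockout, against 88.1, 85.2 and 73.8 in wild-type. The lowest knockout library was more than 5 times the highest wild-type library, and the difference was 2.72 ± 0.21 (adjusted p = 5.47e-06). Tlr4, the receptor to which Cd14 passes lipopolysaccharide, had 1211.7, 1199 and 1420.6 in the knockout and 646, 479 and 714 in wild-type (1.07 ± 0.18, adjusted p = 0.000738). Ly96, the third component of that complex, had 197, 160 and 210 in the knockout and 163, 76.6 and 123 in wild-type and was not called (adjusted p = 0.0861). Clec7a, the beta-glucan receptor Dectin-1, had 39.7, 39.2 and 75.9 in the knockout and 37.9, 18.5 and 15.5 in wild-type. Its difference of 1.11 ± 0.49 was not called (adjusted p = 0.0934), and it was 1.48 without wild-type replicate 1, where it passed (adjusted p = 0.0317), and 0.36 without wild-type libraries 2 and 3 (0.632).

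Among integrins and pan-leukocyte membrane proteins, Itgax, Ptprc and Laptm5 were higher in the knockout. Itgax, the alpha chain CD11c of dendritic cells and some macrophages, had 133, 168 and 203 normalized counts in the knockout, against 26.9, 44.5 and 46.6 in wild-type. There was a clear gap between the groups, with a difference of 2.09 ± 0.34 (adjusted p = 0.000666). Part of its coding sequence, 758 bases, matches the neighbouring Itgad at 95.0%. Ptprc, the pan-leukocyte phosphatase CD45, had 356, 272 and 361 in the knockout and 175, 147 and 137 in wild-type (1.10 ± 0.22, adjusted p = 0.00221). Laptm5, a lysosomal membrane protein of blood cells, had 610, 471 and 913 in the knockout and 399, 240 and 188 in wild-type (1.29 ± 0.31, adjusted p = 0.00597). Its knockout libraries all exceeded its wild-type libraries, and the call was lost without wild-type libraries 2 and 3 (adjusted p = 0.129).

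Itgam, the alpha chain CD11b of myeloid cells, had 190, 154 and 234 normalized counts in the knockout and 103, 732 and 294 in wild-type. The knockout libraries lay between wild-type library 1 and wild-type libraries 2 and 3, so the sign of the difference followed the wild-type library used. It was -0.56 ± 0.55 with all libraries (adjusted p = 0.437), -1.29 without wild-type replicate 1 (0.0121), 0.12 without wild-type replicate 2 (0.819) and 0.88 without wild-type libraries 2 and 3 (0.0649). Of its exon bases, 68.7% are also assigned to Gm49368 on the same strand, which limits its count further. Itgal, the alpha chain of the leukocyte integrin LFA-1, had 191, 109 and 223 in the knockout and 163, 51.9 and 48.6 in wild-type. Wild-type library 1 lay within the knockout range, and the difference of 1.15 ± 0.47 was not called (adjusted p = 0.0679). It was 1.71 without that library, where it passed (adjusted p = 0.00273), and 0.03 without wild-type libraries 2 and 3 (0.96). Itgb2, the beta chain shared by these 3 integrins, had 149, 117 and 178 in the knockout and 155, 189 and 150 in wild-type, with overlap and no call.

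Both transcription factors were higher by limma. Spi1, which encodes PU.1, had 206, 120 and 263 normalized counts in the knockout, against 94.3, 46.9 and 35 in wild-type. The groups did not overlap (1.78 ± 0.42, adjusted p = 0.00574), and the call was lost without wild-type libraries 2 and 3 (0.98, adjusted p = 0.106). Irf8, a partner of PU.1 in monocytes and dendritic cells, had 410, 297 and 339 in the knockout and 290, 158 and 215 in wild-type (0.69 ± 0.25, adjusted p = 0.0463). Knockout library 2 and wild-type library 1 differed little, and the call of Irf8 was lost when any 1 of knockout replicates 1, 2 or 3 or wild-type replicates 2 or 3 was left out (adjusted p 0.0584 to 0.176). With all libraries, neither edgeR (adjusted p = 0.0537) nor DESeq2 (0.0573) called Irf8. Cebpa and Cebpb, factors that act with PU.1 in myeloid cells and that epithelia also use, were higher as well. Cebpa had 2398.9, 2034.6 and 2540.3 in the knockout and 389, 661 and 468 in wild-type (2.23 ± 0.20, adjusted p = 1.39e-05), and Cebpb had 1221.2, 932 and 1380.2 in the knockout and 390, 688 and 357 in wild-type (1.34 ± 0.25, adjusted p = 0.00154). Of the exon bases of Cebpb, 20.7% overlap Tmem189 on the opposite strand.

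PU.1 binds DNA around the letters GAGGAA, and the promoters of several of the higher genes are shown because these letters occur in them. RefSeq windows of build GRCm38.p6, from 250 bases before to 50 after the start of the gene, were at hand for 25 of the 35 genes. The letters GAGGAA, or TTCCTC on the other strand, occurred in a window of 15 of these 25 genes (60.0%), against 31.3% of 27025 genes of the genome. By window, the share was 54.8% of 31 windows of the 25 genes and 28.3% of all 32851 windows. The motif was present in 9 of 15 genes called higher and in 6 of 10 that were not, so it did not separate the genes by their call. The longer form GAGGAAGT, which contains the shorter, occurred in 1 of the 25 genes (C1qc) and in 3.69% of all genes. The windows of 4 higher genes and of Cd163, the lower gene, follow on the strand of the gene, with GAGGAA or TTCCTC in capitals. They lie at chr4:136886151-136886450 for C1qb, chr4:136892865-136893164 for C1qc, chr3:96293920-96294219 for Fcgr1 and chrX:9469275-9469574 for Cybb, all on the minus strand, and at chr6:124304401-124304700 on the plus strand for Cd163. Each of the first 4 holds the letters 1 time, and the window of Cd163 holds no copy.
C1qb: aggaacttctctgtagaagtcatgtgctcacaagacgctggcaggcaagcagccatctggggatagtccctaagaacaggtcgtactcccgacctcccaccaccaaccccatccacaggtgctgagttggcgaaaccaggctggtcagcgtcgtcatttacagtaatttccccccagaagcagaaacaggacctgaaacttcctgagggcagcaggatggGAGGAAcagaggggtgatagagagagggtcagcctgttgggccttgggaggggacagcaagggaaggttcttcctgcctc
C1qc: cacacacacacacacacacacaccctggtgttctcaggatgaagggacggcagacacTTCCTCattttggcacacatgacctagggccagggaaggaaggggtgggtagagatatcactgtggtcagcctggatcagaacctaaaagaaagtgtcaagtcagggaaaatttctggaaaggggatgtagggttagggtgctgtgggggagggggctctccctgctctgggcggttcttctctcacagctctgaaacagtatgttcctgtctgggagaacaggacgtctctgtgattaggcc
Fcgr1: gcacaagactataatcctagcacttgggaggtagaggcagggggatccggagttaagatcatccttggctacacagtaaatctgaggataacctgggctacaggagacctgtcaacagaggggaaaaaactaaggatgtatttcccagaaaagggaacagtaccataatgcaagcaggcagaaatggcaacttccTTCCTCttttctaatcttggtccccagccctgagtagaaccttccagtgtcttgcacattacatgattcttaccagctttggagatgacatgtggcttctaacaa
Cybb: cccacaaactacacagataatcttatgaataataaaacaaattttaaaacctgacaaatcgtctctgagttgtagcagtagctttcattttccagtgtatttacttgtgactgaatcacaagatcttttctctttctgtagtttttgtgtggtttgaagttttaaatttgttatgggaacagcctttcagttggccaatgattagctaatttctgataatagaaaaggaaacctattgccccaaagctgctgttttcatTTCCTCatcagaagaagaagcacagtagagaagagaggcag
Cd163: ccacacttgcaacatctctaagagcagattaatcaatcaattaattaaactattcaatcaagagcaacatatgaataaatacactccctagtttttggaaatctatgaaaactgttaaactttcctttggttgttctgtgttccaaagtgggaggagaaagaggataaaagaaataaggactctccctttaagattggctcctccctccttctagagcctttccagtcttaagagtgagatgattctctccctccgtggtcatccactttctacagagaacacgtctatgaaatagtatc

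Of the cytoskeletal and calcium-binding proteins, Aif1, the macrophage protein Iba1, had 165, 137 and 184 normalized counts in the knockout, against 96.7, 32.1 and 37.9 in wild-type. No wild-type library reached the knockout range (1.69 ± 0.41, adjusted p = 0.00669), and the call was lost without wild-type libraries 2 and 3 (0.73, adjusted p = 0.108). Lcp1, the actin-bundling protein L-plastin, had 4305.7, 4414.2 and 4533.7 in the knockout and 4953.8, 4019.5 and 3353.9 in wild-type. The knockout libraries lay within the wild-type range, with no call (0.12 ± 0.16, adjusted p = 0.562). Per kilobase of exon Lcp1 was the third highest of the 35 genes in the knockout (465) and the second highest in wild-type (432). Processed pseudogenes match its coding sequence at 93.7% over 1805 bases (Gm6201) and 92.5% over 1174 bases (Gm7823).

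Coro1a, an actin regulator of leukocytes, had 306, 289 and 407 normalized counts in the knockout and 147, 496 and 273 in wild-type. As for Itgam, wild-type library 2 was the highest of the 6 and wild-type library 1 the lowest. The difference was 0.28 ± 0.37 with all libraries (adjusted p = 0.568), -0.16 without wild-type replicate 1 (0.667) and 1.16 without wild-type libraries 2 and 3, where it passed the test (0.0107). Itgam and Coro1a were the only 2 of the 34 genes that reached 3 times the level of wild-type library 1 in library 2 and 1.5 times in library 3.

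The phagocyte NADPH oxidase, which makes superoxide, was higher in its membrane core. Cybb, the catalytic subunit gp91phox, had 286, 264 and 432 normalized counts in the knockout, against 108, 90.1 and 96.1 in wild-type. Its lowest knockout library was more than 2 times its highest wild-type library (1.70 ± 0.25, adjusted p = 0.000404). Cyba, the partner subunit p22phox, which other oxidases of epithelia also use, had 1335.4, 1162.8 and 2109.7 in the knockout and 419, 319 and 370 in wild-type (2.02 ± 0.22, adjusted p = 5.6e-05). Ncf1, the cytosolic organizer p47phox, had 127, 77.6 and 193 in the knockout and 61.2, 66.7 and 40.8 in wild-type. Knockout library 2 lay close to the wild-type range, and the difference of 1.16 ± 0.39 (adjusted p = 0.0315) lost its call without knockout replicate 1 (0.0909), knockout replicate 3 (0.148), wild-type replicate 3 (0.108) or wild-type libraries 2 and 3 (0.141). Of the exon bases of Ncf1, 11.1% overlap Gtf2ird2 on the opposite strand.

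The enzymes Arg1 and Nos2, which compete for arginine and are used as markers of opposite macrophage activation states, were near the minimum in both groups. Arg1 had 19.8, 22.9 and 7.69 normalized counts in the knockout and 20.8, 21.0 and 14.6 in wild-type, and Nos2 had 11.3, 25.9 and 23.1 in the knockout and 23.3, 9.88 and 9.71 in wild-type. Both sets overlapped and neither was called (adjusted p = 0.745 and 0.539), and no difference was detectable at this depth. Arg2, the mitochondrial arginase, had 4.72, 10.3 and 2.88 in the knockout, against 39.2, 44.5 and 41.8 in wild-type (-2.76 ± 0.59, adjusted p = 0.00339), and 28.1% of its exon bases overlap genes on the opposite strand. Its values in knockout libraries 1 and 3 were under the minimum of 10, where 3 reads equal 2.83 and 2.88 normalized counts. Slc7a2, an arginine transporter, had 128, 134 and 71.1 in the knockout and 356, 230 and 232 in wild-type (-1.31 ± 0.31, adjusted p = 0.0056).

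Within a library, the proportions of several of these genes to each other differed between the groups. For every 100 counts of C1qa, C1qb and C1qc together there were 1.16, 0.828 and 0.467 counts of Cd163 in the knockout, against 3.09, 9.77 and 9.79 in wild-type, with no overlap. Per 100 counts of Csf1r there were 67.5, 94.7 and 50.6 of Cd14 in the knockout and 11.1, 18.6 and 15.8 in wild-type. Per 100 counts of Ptprc there were 37.4, 61.7 and 56.1 of Itgax in the knockout and 15.4, 30.3 and 34 in wild-type, and 80.4, 97.0 and 119 of Cybb in the knockout and 61.5, 61.3 and 70.2 in wild-type. The knockout values of these ratios lay wholly on 1 side of the wild-type values. Each ratio sets genes against each other whose differences, given above, already differed in size or direction. The ratios restate those differences and are no further evidence for them. Mrc1 per 100 counts of Csf1r overlapped, with 36.6, 50.5 and 27.7 in the knockout and 37.6, 60.3 and 49.6 in wild-type. These ratios are descriptions without a test, and counts of different genes also depend on their lengths.

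The pathway genes that pair with the 35, listed by role, were higher more often than lower in the knockout. Of 36 such partners 31 were tested, 15 were higher, 3 (Gas6, Arg2 and Slc7a2) were lower and 13 were not called, with a median difference of 0.68. The shares over all genes were 23.2% higher and 21.4% lower. The number higher was 9 without knockout replicate 1, 8 without knockout replicate 3, 10 without wild-type replicate 3 and 8 without wild-type libraries 2 and 3. Over all genes, 3106 of 16970 were higher without knockout replicate 1 and 3093 of 17080 without knockout replicate 3. Without wild-type replicate 3 the number over all genes was 3323 of 16390. A list of 28 other macrophage genes held 26 that were tested, of which 15 were higher and 11 not called, with a median of 1.0. Its sum ran from 16974.1 to 28321 normalized counts in the knockout and from 6882.5 to 10307.9 in wild-type. Apoe gave the largest part of that sum in every library, with 5359.7, 5064.3 and 10079.5 in the knockout and 3166.7, 2504.3 and 1750.7 in wild-type. Cd74 came next, with 3031.6, 4464.4 and 5177.7 in the knockout and 2014.8, 1349.7 and 1311.8 in wild-type. Adgre1, the macrophage marker F4/80 (row Emr1), had 353, 201 and 482 in the knockout and 120, 153 and 114 in wild-type (1.34 ± 0.31, adjusted p = 0.00546). Lyz2, the lysozyme of myeloid cells, had 2034.3, 1600.9 and 3414.9 in the knockout and 808, 682 and 478 in wild-type (1.80 ± 0.27, adjusted p = 0.000457). Slamf9, Mpeg1 (perforin-2) and Ctss (cathepsin S) had differences of 2.39, 1.84 and 1.65, each with the knockout libraries above the wild-type libraries. Of the 11 not called, Gpnmb, Folr2 and Cd86 had differences below 0, at -1.67, -0.46 and -0.048. The knockout values of Gpnmb, a low gene, all lay below its wild-type values. Lyve1, Siglec1 and Stab1, also not called, had differences of 0.78, 0.29 and 0.045 with overlapping groups. The number of these other macrophage genes higher was 10 of 24 tested without wild-type libraries 2 and 3.

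Several lists of markers of other cell types also held called genes, and their part in the results above was not tested. Over all genes tested, 23.2% were higher and 21.4% lower. The dendritic cell list (9.09% higher, 18.2% lower) and the B and plasma cell list (28.6% higher) were near or under those shares. Median differences near the 1.02 of the 34 genes were also those of epithelial genes (1.04) and T and NK cell genes (0.993). Of 18 neutrophil genes 6 were tested and 5 were higher, among them Mmp9, which passed the minimum only through the knockout libraries and so had to differ, with sums of 1421.4 to 2598.9 in the knockout and 177 to 188 in wild-type. Cd177 made up most of the sum in the knockout libraries but not in the wild-type libraries, with 1049.3, 1391.1 and 1976.1 in the knockout and 80.8, 85.2 and 60.2 in wild-type. The defining neutrophil marker Ly6g was at 0 in all 6 libraries, S100a9 was at 0 in the 3 knockout libraries, and S100a8 did not exceed 5.77 in any library. The number of neutrophil genes higher was 2 of 4 tested without knockout replicate 3, 3 of 4 without knockout replicate 1, 3 of 5 without knockout replicate 2 and 3 of 6 without wild-type replicate 1. Of 13 dendritic cell genes 11 were tested, 1 (Cd209a) was higher and 2 (Zbtb46 and Snx22) were lower, with sums of 683 to 901 in the knockout and 775 to 1083 in wild-type. Cd209a, with values of at least 10 in the knockout libraries alone, kept its call in none of the fits without knockout replicates 1, 2 or 3 or wild-type replicates 1 or 3, being untested or not called there, and Zbtb46 lost its own without wild-type libraries 2 and 3 (adjusted p = 0.084). Of the exon bases of Snx22, 28.5% overlap Ppib on the opposite strand.

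Of 14 mast cell and eosinophil genes 9 were tested, 5 were higher and 1 (Kit) was lower, with sums of 1606.8 to 2604.7 in the knockout and 1733.8 to 2579.1 in wild-type. Kit, with 315, 285 and 210 in the knockout and 2153.1, 1532.5 and 1540 in wild-type, carried most of the wild-type sums, while the mast cell protease Mcpt2 had 648, 397 and 701 in the knockout and 111, 60.5 and 355 in wild-type. Mcpt4, among the 5, passed the minimum only through the knockout libraries. Of 18 T and NK cell genes 6 were tested and 0 were called by limma, edgeR or DESeq2, while 2 (Cd4 and Cd3g, the second named after its value was seen) had an unadjusted limma p under 0.05, and the sums were 213 to 301 in the knockout and 131 to 195 in wild-type. By limma, Cd4 was higher without wild-type replicate 1 and Cd3g without wild-type replicate 3. B and plasma cell genes gave 2 higher of 7 tested, with sums of 7935.2 to 9795 in the knockout and 4434.6 to 6006.5 in wild-type, most of it Sdc1, which epithelium also expresses. The other, Igha, had overlapping groups. The number was 1 without knockout replicates 1 or 2 or without wild-type libraries 2 and 3, and 3 without knockout replicate 3. Fibroblast genes gave 4 higher of 10, with sums of 30640.2 to 53078.2 in the knockout and 25655 to 42503.4 in wild-type. Endothelial genes gave 9 lower of 10, with sums of 2852.2 to 3740.8 in the knockout and 7010.7 to 10660.4 in wild-type. Epithelial genes gave 8 higher of 10, with sums of 231391.4 to 352062.9 in the knockout and 106547.1 to 150889.8 in wild-type, and without wild-type libraries 2 and 3 the number was 5.

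**Figure D4:**
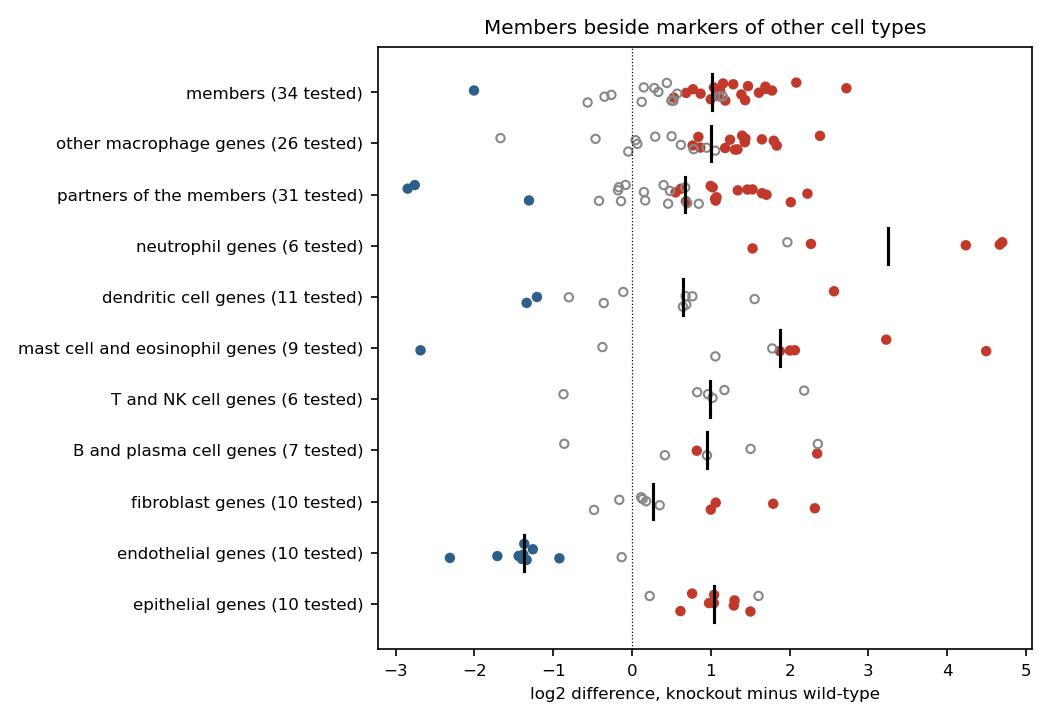
Log2 difference, knockout minus wild-type, of each tested gene of the 35 macrophage and myeloid genes and of 10 other lists, with filled circles for called genes, open circles for genes not called and a bar at the median of each list. The 34 tested genes have a median of 1.02, beside 1.0 for other macrophage genes, 1.04 for epithelial, 0.993 for T and NK cell and 0.951 for B and plasma cell genes. The neutrophil list (3.25) and the mast cell and eosinophil list (1.88) have higher medians. Partners (0.675), dendritic cell genes (0.646) and fibroblast genes (0.265) have lower ones, and the endothelial list lies below 0.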

How the data were processed

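RNA was measured in 3 knockout and 3 wild-type libraries, grouped by their labels. STAR, featureCounts, DESeq and the mm10 build are named, per the submitters' processing notes, without their roles. Versions, annotation and strandedness were not given in the sources used here. The table that the authors deposited holds a signal at or above 0, the normalized count, in 38720 rows, of which 27 with a date in place of a symbol were dropped. All values were whole multiples of 1 read per library within 0.05 reads (100% of values). The authors' deposited table of their own comparison gives p-values and a ratio of group means, its fold change, and was used only as an alternative.

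Genes with at least 10 normalized counts in at least 3 of 6 libraries were tested with limma 3.58.1 (trended eBayes, R 4.3.3, two-sided) on log2(normalized count + 1), with Benjamini-Hochberg adjustment over 17409 genes. Fold changes on that scale understate the change of low genes. The procedure was tested on simulated data. Recovered reads were also tested with edgeR 4.0.16, which called 4309 genes higher and 3719 lower, and with DESeq2 1.42.0. Coordinates and exon lengths come from GENCODE vM21, promoters from RefSeq. Copies were sought with blastn 2.17.0 (at least 100 bases, 90% identity).

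The genes and lists were chosen with earlier results of these data known. All 35 genes are named, with partners and up to 4 called genes of each other list. Named besides are defining markers, genes that carry a list sum and some genes that were not called. Replicate libraries differed by more than sampling noise.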

Additional observations from a re-analysis of the deposited data

How the results depend on the processing

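No called gene among the 35 changed sign under the 19 alternatives, which changed the pseudocount, filter, scaling, test or libraries, and 14 of the 21 called genes lost their call in at least 1. The number of the 35 higher was 20, and 13 in the authors' deposited table, 13 to 23 with 1 library left out, and 8 without wild-type libraries 2 and 3. The number lower was 1, and 1 to 2 with 1 library left out (Itgam joined). Without wild-type libraries 2 and 3 it was 0 by limma, with 0 at an unadjusted p under 0.05. Over all genes 4047 were higher and 3733 lower. The authors' deposited table called 2017 lower, and 1956 were higher by a log2 difference of at least 1. With 1 library left out, 3093 to 4364 were higher and 2844 to 3505 lower. Upper quartile scaling gave 3452 higher and 4503 lower, and moved the median of all genes to -0.153, against 0.101 with quantile normalization. With knockout and wild-type libraries of the same number joined in a replicate block, 19 of the 35 were higher and 1 lower, and 3723 and 3621 over all genes. The numbers did not pair the libraries (correlations of -0.00344, 0.0213 and -0.173 for same-numbered libraries), and for none was the correlation highest with the library of its own number.

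The differences that turned round were all of genes with no call. With quantile normalization they were Lcp1 -0.03, Arg1 0.36, Il34 0.29, Vav1 0.14, Lbp 0.18 and Itgb2 0.15, and with upper quartile scaling Lcp1 -0.02. With any 1 library left out, Itgam ran from -1.29 to 0.12, Lcp1 from -0.01 to 0.27, Coro1a from -0.16 to 0.72, Arg1 from -0.54 to 0.19, Il34 from -0.35 to 0.05, Btk from -0.14 to 0.48 and Ass1 from -0.61 to 0.37. Without wild-type libraries 2 and 3, Mrc1 was -0.01, Itgam 0.88, Lcp1 -0.17, Nos2 -0.28, Pros1 -0.10 and Ass1 0.68. The cause was not tested. Depth limits Marco, Arg1, Nos2 and the knockout values of Arg2. Exons shared with opposite-strand genes limit Csf1r, Ncf1, C1s1, Cebpb, Arg2 and Snx22.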
